A study of Mus musculus with 18 samples.

Results

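10 transcripts of the cyclic AMP pathway and its feedback were followed in mouse Brunner's glands after exendin-4, in mice with and without the receptor for glucagon-like peptide 1 (GLP-1). The list was set by gene: Crem, Creb1, Sik1, Rgs2, Pde3b, Pde4a, Pde4b, Pde4d, Pde7b and Pde10a, picked by name and not by their values, although earlier results of the same arrays were known. Of these 10 genes, 9 were analysed, out of 17204 in the table; Pde4d was not analysed here. Brunner's glands are the mucus-secreting glands of the duodenal submucosa, here cut from sections by laser capture microdissection. Exendin-4 is a peptide that activates the GLP-1 receptor.

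All 18 arrays came from male CD-1 mice, 1 mouse an array, in 6 groups of 3. The GLP-1R-/- groups were untreated, 6 h after exendin-4 and 18 h after exendin-4, and the wild-type groups were the same. The labels name no vehicle-dosed or time-matched control, dose or age. Within a genotype, the agonist therefore cannot be told apart from handling and time of collection. Values are log2 signals from Affymetrix arrays that the authors processed with RMA, a method that corrects for background, brings the arrays to a common scale and condenses each gene's probes to 1 value. Signals of different genes cannot be set against each other, and RMA compresses the differences of dim genes. Array medians lay between 5.88 and 6.11. GLP-1R-/- 6 h replicate 13 had the highest median and correlated with the others between 0.911 and 0.945 over the 12775 genes tested, whereas all other pairs lay between 0.951 and 0.993. Because the table gives Ensembl identifiers with no symbols, the receptor's own transcript, gland markers, markers of neighbouring cells and other cyclic AMP pathway genes were not analysed here.

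When the GLP-1 receptor binds its ligand, the stimulatory G protein switches on adenylyl cyclase, and the cyclic AMP that is made activates protein kinase A. The kinase phosphorylates CREB, encoded by Creb1, which binds cyclic AMP response elements in promoters and turns on target genes. Several of those targets act back on the pathway. The Crem gene has an internal promoter that makes ICER, a short repressor that occupies the same elements. SIK1 is a kinase that keeps the coactivators of CREB in the cytoplasm, RGS2 dampens signalling by G proteins, and phosphodiesterases break cyclic AMP down.

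In wild-type glands 6 h after exendin-4, Crem and Pde10a rose, and at 18 h both read close to the untreated level again. Rgs2 was also highest in the wild-type 6 h group, where 1 array lay far above the rest. In GLP-1R-/- glands none of the genes passed the test at 6 h or 18 h, and nor did any of the 12775 genes tested. The difference between genotypes in the 6 h change did not pass the test for any gene of the list. For Pde3b, every GLP-1R-/- array read lower than every wild-type array, treated or not. A gene is called here where limma, fitted across 12775 genes in all 18 arrays, gave a Benjamini-Hochberg adjusted p under 0.05. The filter for testing asked for 3 arrays above a signal of 4.79, which 8 of the 9 genes passed. In bulk tissue, fewer cells that carry a transcript and less of it per cell cannot be told apart.

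Crem (ENSMUSG00000063889_at) encodes a transcription factor of the CREB family. It read 5.81, 5.50 and 5.89 in wild-type glands at 6 h, against 4.75, 5.06 and 4.97 in untreated wild-type glands. All 3 treated arrays lay above all 3 untreated ones; groups without overlap were found for 23.8% of tested genes here. The difference was 0.80 on the log2 scale, or 1.75-fold (SE 0.127, limma adjusted p = 0.00171). This call held in each of the 24 alternative analyses in which Crem was tested, with differences between 0.72 and 0.92. At 18 h the wild-type arrays read 4.69, 4.94 and 4.86, within the span of the untreated ones or just under it. The difference from untreated mice was then -0.10 (95% interval -0.36 to 0.17, limma adjusted p = 0.893), and the difference from the 6 h group was -0.90 (SE 0.127, limma adjusted p = 0.000253). The 18 h and 6 h arrays did not overlap, as in 35.7% of tested genes. The array row sums up the whole gene, so ICER and the full-length forms are not separated.

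In GLP-1R-/- glands Crem read 5.11, 5.22 and 5.14 at 6 h, against 4.98, 4.83 and 4.97 untreated. These groups did not overlap either, as held for 9.27% of tested genes in this comparison. The difference of 0.23 was not called (SE 0.127, limma adjusted p = 0.595). At 18 h the GLP-1R-/- arrays read 5.16, 4.93 and 5.0. The 6 h change in GLP-1R-/- mice minus that in wild-type mice was -0.58 (95% interval -0.96 to -0.20, limma adjusted p = 0.222), which was not called. Ordered by mean, the GLP-1R-/- 6 h group at 5.16 ± 0.0563 came next to the wild-type 6 h group at 5.73 ± 0.208 (SD, n = 3 each), which stood apart with no overlap. Each of the other 5 groups overlapped its neighbour in the order.

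Pde10a (ENSMUSG00000023868_at) encodes a phosphodiesterase that breaks down both cyclic AMP and cyclic GMP and is best known from the striatum of the brain. Its signal was 5.23, 5.12 and 5.40 in wild-type glands at 6 h, against 4.70, 4.79 and 4.73 in untreated wild-type glands. The 2 groups did not overlap, as held for 23.8% of tested genes, and the difference was 0.51, or 1.42-fold (SE 0.127, limma adjusted p = 0.035). The gene is dim: its untreated mean of 4.74 lay just under the filter level of 4.78725. The 3 wild-type 6 h arrays exceeded that level, as did 4 arrays outside that group. Of these 4, untreated GLP-1R-/- replicate 5 (4.78761) and untreated wild-type replicate 2 (4.78759) only barely exceeded it. The 4 arrays outside the wild-type 6 h group, in which the gene is high, met the filter of 3 arrays. They did so only with at least 1 of these 2 values just over the level. At 18 h the wild-type arrays read 4.47, 4.58 and 4.70, a difference of -0.67 from the 6 h group (SE 0.127, limma adjusted p = 0.00245) and of -0.16 from untreated mice (95% interval -0.42 to 0.11, limma adjusted p = 0.825).

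The call of Pde10a at 6 h was lost in 8 of 24 alternatives, over which the adjusted p ran from 0.00394 to 0.18 (limma). Those were a limma fit to the groups compared alone (adjusted p = 0.0589) and the fits without GLP-1R-/- 18 h replicates 17 (0.051) or 18 (0.0505), untreated wild-type replicates 1 (0.125), 2 (0.0793) or 19 (0.0809), and wild-type 6 h replicates 7 (0.104) or 9 (0.18). The difference itself stayed between 0.43 and 0.58.

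In GLP-1R-/- glands Pde10a read 4.86, 4.60 and 4.50 at 6 h, against 4.74, 4.79 and 5.06 untreated, and these groups overlapped. The difference of -0.21 was not called (SE 0.127, limma adjusted p = 0.597). At 18 h its 3 arrays read 4.74, 4.69 and 4.60. The 6 h change in GLP-1R-/- mice minus that in wild-type mice was -0.72 (95% interval -1.10 to -0.34, limma adjusted p = 0.1), short of a call. Without GLP-1R-/- 6 h replicate 13 this difference was -0.82 and was called (limma adjusted p = 0.0268); over 24 alternatives the adjusted p lay between 0.00873 and 0.31. Only the wild-type 6 h group stood clear of its neighbour in the order of means, at 5.25 ± 0.144 (SD, n = 3), followed by untreated GLP-1R-/- mice at 4.86 ± 0.176 (SD, n = 3).

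Rgs2 (ENSMUSG00000026360_at) encodes a regulator of G protein signalling that speeds up the shut-off of G protein alpha subunits. It read 8.02, 8.05 and 9.56 in wild-type glands at 6 h, against 7.82, 7.58 and 7.91 in untreated wild-type glands. The groups did not overlap, as held for 23.8% of tested genes, but replicate 9 lay far above the other 2 treated arrays. The difference of 0.77 was not called (SE 0.3, limma adjusted p = 0.21), and it was 0.27 without replicate 9. At 18 h the wild-type arrays read 7.55, 7.69 and 7.38, all lower than at 6 h, where 35.7% of tested genes did not overlap. That difference of -1.01 was called (SE 0.3, limma adjusted p = 0.039).

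This 18 h against 6 h call of Rgs2 was lost in 9 of 25 alternatives, with adjusted p between 0.0216 and 0.164 (limma). Without wild-type 6 h replicate 9 the difference was -0.50 (limma adjusted p = 0.164). The call was also lost after quantile normalisation (0.0526), in a fit to the 2 groups alone (0.123), and without wild-type 18 h replicate 10 (0.0977), 11 (0.069) or 12 (0.115), untreated GLP-1R-/- replicate 5 (0.0506), or GLP-1R-/- 18 h replicate 16 (0.0507) or 17 (0.0506). In GLP-1R-/- glands Rgs2 read 6.93, 7.38 and 7.76 at 6 h, against 7.56, 7.60 and 7.44 untreated, a difference of -0.18 (limma adjusted p = 0.824). Without replicate 13, at 6.93, its sign turned and it was 0.036. At 18 h it read 7.85, 7.80 and 8.08, all above the untreated arrays, a difference of 0.38 that was not called (SE 0.3, limma adjusted p = 0.991). Groups without overlap were found for 16.5% of tested genes there. These 18 h arrays also lay above the 3 wild-type 18 h arrays, where 23.8% of tested genes did not overlap. That difference of 0.37 between genotypes was not called (SE 0.3, limma adjusted p = 0.736). The 6 h change in GLP-1R-/- mice minus that in wild-type mice was -0.95 (95% interval -1.85 to -0.056, limma adjusted p = 0.446), and -0.44 without wild-type 6 h replicate 9. All neighbouring groups overlapped in the order of means, which lay between 7.36 ± 0.416 in GLP-1R-/- mice at 6 h and 8.55 ± 0.88 in wild-type mice at 6 h (SD, n = 3 each).

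**Figure D1:**
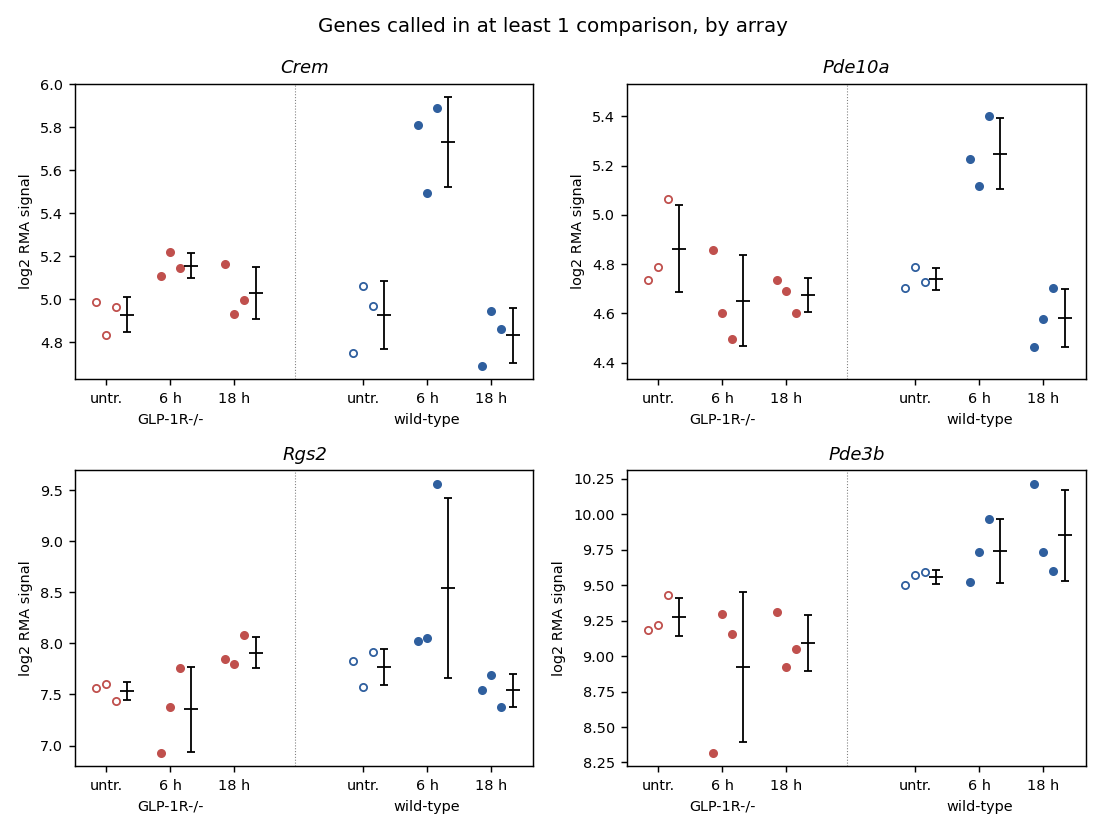
Log2 RMA signal (vertical axis, a separate range for each gene) of Crem, Pde10a, Rgs2 and Pde3b in each of 18 arrays, by genotype and state; open circles are untreated mice, filled circles mice after exendin-4, and black bars the mean ± SD of 3 arrays. The wild-type 6 h arrays stand highest for Crem (5.50 to 5.89) and Pde10a (5.12 to 5.40), 1 of them is far above the rest for Rgs2 (9.56), and for Pde3b all GLP-1R-/- arrays lie below all wild-type ones.

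The promoters that RefSeq (GRCm38.p6) gives for the genes were searched for the cyclic AMP response element TGACGTCA and its short form CGTCA, on both strands (TGACG on the other strand). The full element holds the short form within it. Only the 250 bases before each start were searched: 12 windows for 6 genes (Creb1, Rgs2, Pde4a, Pde4b, Pde7b and Pde10a). Promoters of the others were not analysed here. The first lines show Rgs2 and both starts of Pde10a; of these genes, Pde10a was called in wild-type mice at 6 h against untreated and Rgs2 was not. The last 2 lines show the matches in Pde4a and Pde4b, which were not called. Capitals mark the short form.
Rgs2 upstream of the start, chr1:144004150-144004399, minus strand: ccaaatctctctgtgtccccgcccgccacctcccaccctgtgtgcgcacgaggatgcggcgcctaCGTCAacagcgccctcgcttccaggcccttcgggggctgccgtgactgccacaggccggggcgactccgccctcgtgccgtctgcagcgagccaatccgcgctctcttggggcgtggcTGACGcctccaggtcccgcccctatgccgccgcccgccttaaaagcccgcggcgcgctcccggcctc
Pde10a upstream of the first start, chr17:8801495-8801744, plus strand: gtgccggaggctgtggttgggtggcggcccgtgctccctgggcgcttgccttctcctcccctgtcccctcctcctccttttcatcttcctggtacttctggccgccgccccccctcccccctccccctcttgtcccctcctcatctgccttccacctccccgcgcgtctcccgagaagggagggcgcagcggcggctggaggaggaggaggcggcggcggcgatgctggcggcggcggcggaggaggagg
Pde10a upstream of the second start, chr17:8849735-8849984, plus strand: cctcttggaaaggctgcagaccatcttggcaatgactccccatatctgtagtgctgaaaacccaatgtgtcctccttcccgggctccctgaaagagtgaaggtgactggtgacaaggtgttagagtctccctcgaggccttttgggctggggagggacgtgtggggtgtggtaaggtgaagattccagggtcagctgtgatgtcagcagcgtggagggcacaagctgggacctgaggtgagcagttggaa
Pde4a around the match, chr9:21184031-21184075, plus strand: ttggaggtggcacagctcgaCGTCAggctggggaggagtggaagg
Pde4b around the match, chr4:102421501-102421545, plus strand: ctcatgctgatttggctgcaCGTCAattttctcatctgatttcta
The full element was in none of the 12 windows and in 1.55% of the same windows of all 32851 promoters in the RefSeq table. The short form was in 3 of the 12 windows and in 17.8% of all such windows. Rgs2 held it at 2 places, beginning 185 and 67 bases before the start, and neither Pde10a window held it. One of the Pde4a windows held it 50 bases and one of the Pde4b windows 34 bases before the start, and neither gene was called. A match describes these letters only and is not evidence of binding.

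Pde3b (ENSMUSG00000030671_at) encodes a membrane-bound phosphodiesterase that insulin activates and cyclic GMP inhibits. It read 9.18, 9.22 and 9.43 in untreated GLP-1R-/- glands, against 9.50, 9.58 and 9.59 in untreated wild-type glands. At 6 h it read 8.32, 9.30 and 9.16 in GLP-1R-/- glands, against 9.52, 9.74 and 9.97 in wild-type glands. At 18 h it read 9.31, 8.92 and 9.05 in GLP-1R-/- glands, against 10.22, 9.74 and 9.60 in wild-type glands. The highest of the 9 GLP-1R-/- arrays, 9.43, was lower than the lowest of the 9 wild-type arrays, 9.50. Such a separation of all 18 arrays was found in 0.658% of the 12775 tested genes, and with GLP-1R-/- lower in 50 genes, or 0.391%. Within 1 state, groups without overlap were more frequent: 13.4% of tested genes untreated, 23.9% at 6 h and 23.8% at 18 h.

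Taken 1 state at a time, the Pde3b difference of GLP-1R-/- minus wild-type mice was -0.28 untreated (SE 0.216, adjusted p = 0.976), -0.82 at 6 h (SE 0.216, adjusted p = 0.0328) and -0.76 at 18 h (SE 0.216, adjusted p = 0.108) in limma. The 6 h call was lost without GLP-1R-/- 6 h replicate 13, whose 8.32 was the lowest value (difference -0.52, limma adjusted p = 0.094), without wild-type 6 h replicates 8 (0.0793) or 9 (0.13), and in a fit to the 2 groups alone (0.258); over 25 alternatives the adjusted p lay between 0.0154 and 0.258. The 18 h difference was called without replicate 13 (limma adjusted p = 0.0143) and with array weights (0.00199), within a range of 0.00199 to 0.347 over 25 alternatives.

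A comparison of the genotypes averaged over the 3 states was added after these values had been seen. The separation of the arrays prompted it, so for Pde3b it describes the size and is no further test. The Pde3b difference of GLP-1R-/- minus wild-type mice was -0.62 on the log2 scale, or 1.53-fold lower (SE 0.125), and -0.52 without replicate 13. Over 24 alternatives it lay between -0.68 and -0.48. Limma called 1 of the 8 tested genes in this comparison, Pde3b itself, where 7.03% of all tested genes were called and 3.66% were called lower. Against untreated mice of the same genotype, Pde3b was not called at 6 h or 18 h after exendin-4. The differences were -0.35 at 6 h and -0.18 at 18 h in GLP-1R-/- mice (limma adjusted p = 0.6 and 0.991). In wild-type mice they were 0.19 and 0.30 (limma adjusted p = 0.81 and 0.8). Without replicate 13 the 6 h difference in GLP-1R-/- mice was -0.052. The 3 wild-type 18 h arrays did lie above the 3 untreated ones, as 16.4% of tested genes did or lay wholly below. In the order of means, the untreated GLP-1R-/- group at 9.28 ± 0.134 and the untreated wild-type group at 9.56 ± 0.0491 (SD, n = 3 each) were the only neighbours that did not overlap.

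Of the other 5 genes, 4 were tested and none of them was called by limma in any comparison. Creb1 (ENSMUSG00000025958_at), the factor that protein kinase A phosphorylates, read between 6.82 and 7.39 over all 18 arrays. Its 6 h difference was -0.22 in GLP-1R-/- mice (95% interval -0.48 to 0.050), or -0.11 without replicate 13, and 0.07 in wild-type mice (95% interval -0.20 to 0.33). CREB is controlled through phosphorylation, which these arrays do not measure.

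Sik1 (ENSMUSG00000024042_at) read 5.71, 5.99 and 6.55 in wild-type glands at 6 h, against 5.97, 5.94 and 6.05 untreated. The treated arrays lay on both sides of the untreated ones, and the difference was 0.10 (95% interval -0.28 to 0.47, limma adjusted p = 0.906). Replicate 9, the array with the highest Rgs2, also had the highest Sik1. In GLP-1R-/- glands Sik1 read 5.85, 5.81 and 5.56 at 6 h, against 5.67, 5.65 and 6.10 untreated. At 18 h it read 5.77, 5.76 and 5.71 in GLP-1R-/- glands, against 6.00, 5.92 and 6.23 in wild-type glands. These groups did not overlap, as held for 23.8% of tested genes in this comparison. Averaged over the 3 states, the Sik1 difference of GLP-1R-/- minus wild-type mice was -0.27 (95% interval -0.49 to -0.056), which was not called (limma adjusted p = 0.131).

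Pde4a (ENSMUSG00000032177_at) and Pde4b (ENSMUSG00000028525_at) belong to the family of phosphodiesterases that act on cyclic AMP alone. Pde4a at 6 h read 6.70, 5.95 and 5.99 in GLP-1R-/- glands, against 5.95, 5.95 and 5.72 in untreated GLP-1R-/- glands; the high value is that of replicate 13. Its 6 h difference was 0.34 in GLP-1R-/- mice (limma adjusted p = 0.595), or 0.095 without that array, and 0.03 in wild-type mice (95% interval -0.32 to 0.37). At 18 h Pde4a read 5.98, 6.24 and 6.13 in GLP-1R-/- glands, all above the untreated arrays, where 16.5% of tested genes did not overlap. That difference of 0.24 was not called (SE 0.162, limma adjusted p = 0.991). Pde4b read between 4.87 and 5.44 over all arrays. Its 6 h difference was 0.18 in GLP-1R-/- mice (95% interval -0.067 to 0.43) and -0.10 in wild-type mice (95% interval -0.35 to 0.15). Untreated, it read 4.87, 4.99 and 5.22 in GLP-1R-/- glands, against 5.23, 5.27 and 5.40 in wild-type glands. Those groups did not overlap, as held for 13.4% of tested genes, and the difference of -0.27 was not called (SE 0.117, limma adjusted p = 0.561).

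Pde7b (ENSMUSG00000019990_at), another cyclic AMP phosphodiesterase, did not pass the filter: its 18 values lay between 3.79 and 4.37, and 0 of them exceeded 4.79. RMA does not say whether a gene was detected, and these values may lie at background. Tested with no filter, over all 17204 genes, its 6 h difference was 0.11 in GLP-1R-/- mice (limma adjusted p = 0.72) and 0.16 in wild-type mice (limma adjusted p = 0.731).

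**Figure D2:**
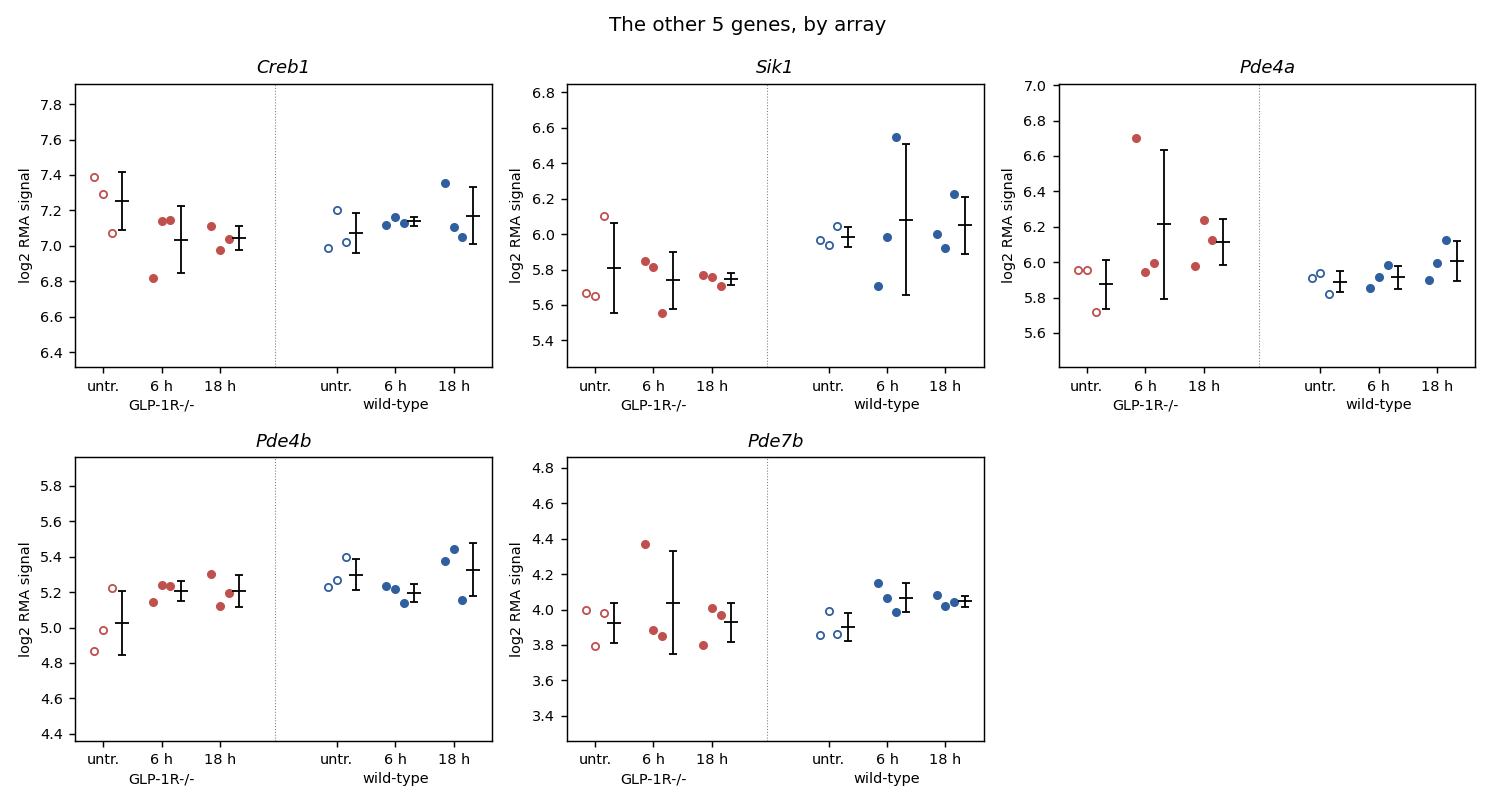
Log2 RMA signal (vertical axis, the same span in each panel) of Creb1, Sik1, Pde4a, Pde4b and Pde7b in each of 18 arrays, by genotype and state; open circles are untreated mice, filled circles mice after exendin-4, and black bars the mean ± SD of 3 arrays. Single arrays stand above the rest of their group at 6 h: 6.55 for Sik1 in a wild-type mouse, and 6.70 for Pde4a and 4.37 for Pde7b in GLP-1R-/- replicate 13.

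As a group, the genes compare with the whole table as follows. In wild-type mice at 6 h, 2 of the 8 tested genes were called, both higher, where 3.39% of all tested genes were called and 1.93% were called higher. At 18 h limma called 0 of the 8 in wild-type mice, where 0.196% of all tested genes were called. At an unadjusted p under 0.05 were 0 of the 8, beside 1073 of all tested genes. Between 18 h and 6 h in wild-type mice 3 of the 8 were called, all lower at 18 h, where 10.9% of all tested genes were called and 6.05% were called lower. These 3 comparisons share arrays with one another. In GLP-1R-/- mice limma called 0 of the 8 at 6 h and 0 of the 8 at 18 h, with 0 at an unadjusted p under 0.05 at either time; of all tested genes limma called 0% at either time, with 1038 and 657 genes at an unadjusted p under 0.05. The median 6 h difference over the 9 genes was -0.07 in GLP-1R-/- mice and 0.16 in wild-type mice, beside 0.07 and 0.02 over all 17204 genes. The wild-type median is the value of Pde7b (0.16, SE 0.125), which did not pass the filter and may lie at background. It therefore does not show a shift of the group.

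**Figure D3:**
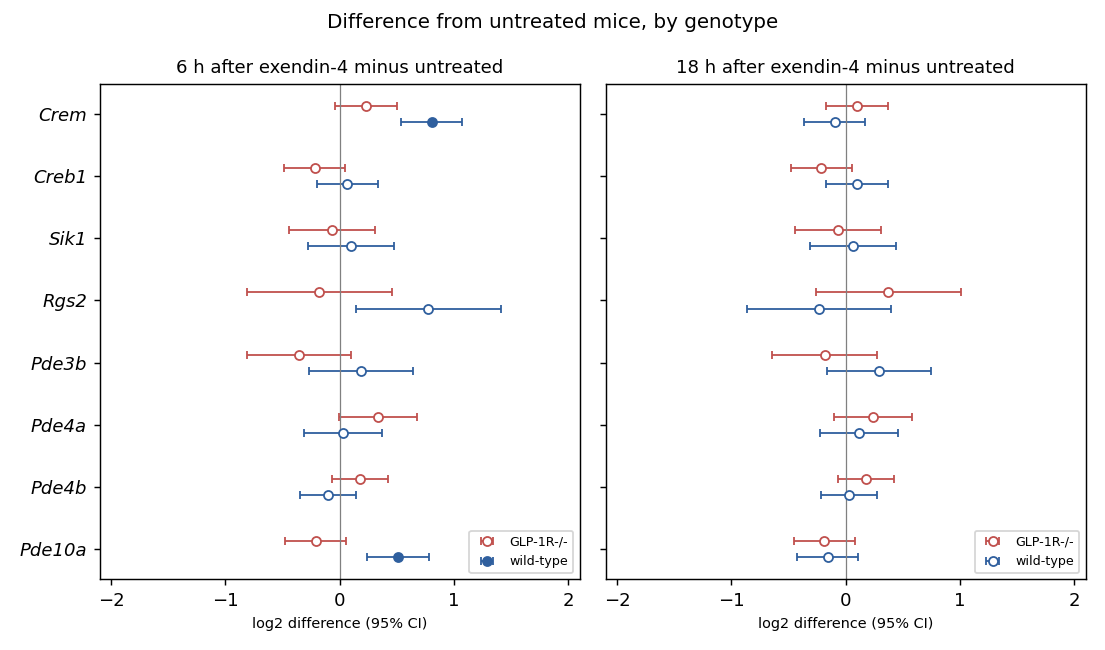
Log2 difference from untreated mice of the same genotype (horizontal axis) for 8 genes at 6 h (left) and 18 h (right), GLP-1R-/- above wild-type for each gene; bars are 95% intervals from limma and filled circles are calls at an adjusted p under 0.05. The called differences are Crem (0.80) and Pde10a (0.51) in wild-type mice at 6 h.

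Whether the response differed by genotype was tested directly. For the 6 h change limma called 0 of the 8 genes, where 0.376% of all tested genes were called. At an unadjusted p under 0.05 were 3 of the 8 (Crem, Rgs2 and Pde10a), beside 1313 of the 12775 tested genes. For the 18 h change it called 0 of the 8, where 0.0235% were called. At an unadjusted p under 0.05 were 0 of the 8, beside 601 of all tested genes. A call in wild-type mice beside none in GLP-1R-/- mice is therefore not by itself a difference between the genotypes.

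Mice of both genotypes were also compared in the same state. Untreated, limma called 0 of the 8 genes, where 0.618% of all tested genes were called. At an unadjusted p under 0.05 was 1 of the 8 (Pde4b), beside 962 of the 12775 tested genes. Crem was level there, at 4.93 ± 0.0821 in GLP-1R-/- mice and 4.93 ± 0.159 in wild-type mice (SD, n = 3 each). At 6 h 4 of the 8 were called, all lower in GLP-1R-/- mice, where 6.07% of all tested genes were called and 3.33% were called lower. Rgs2 differed by -1.19, or 2.28-fold (SE 0.3, limma adjusted p = 0.0257), Pde3b by the -0.82 given above, Pde10a by -0.60 (SE 0.127, limma adjusted p = 0.00908) and Crem by -0.57 (SE 0.127, limma adjusted p = 0.0119). For each of these 4 called genes the 3 GLP-1R-/- arrays lay below the 3 wild-type arrays; 23.9% of tested genes did not overlap in this comparison. At 18 h limma called 0 of the 8, where 1.27% were called. At an unadjusted p under 0.05 was 1 of the 8 (Pde3b), beside 1553 of the 12775 tested genes.

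The 6 h differences between genotypes depended on single arrays. Without wild-type 6 h replicate 9, none of the 4 was called by limma: Rgs2 differed by -0.68 (adjusted p = 0.0658), Pde3b by -0.71 (0.13), Pde10a by -0.52 (0.0522) and Crem by -0.50 (0.0655). Without GLP-1R-/- 6 h replicate 13, Crem and Pde10a were called and Rgs2 was not (difference -0.98, limma adjusted p = 0.0869). The call of Crem was also lost without wild-type 6 h replicate 7 (limma adjusted p = 0.0599). In a limma fit to the 2 groups alone none was called, with adjusted p of 0.296 for Rgs2, 0.173 for Pde10a and 0.177 for Crem. Over the alternatives the adjusted p lay between 0.0164 and 0.296 for Rgs2, 8.66e-05 and 0.173 for Pde10a, and 0.000713 and 0.177 for Crem.

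**Figure D4:**
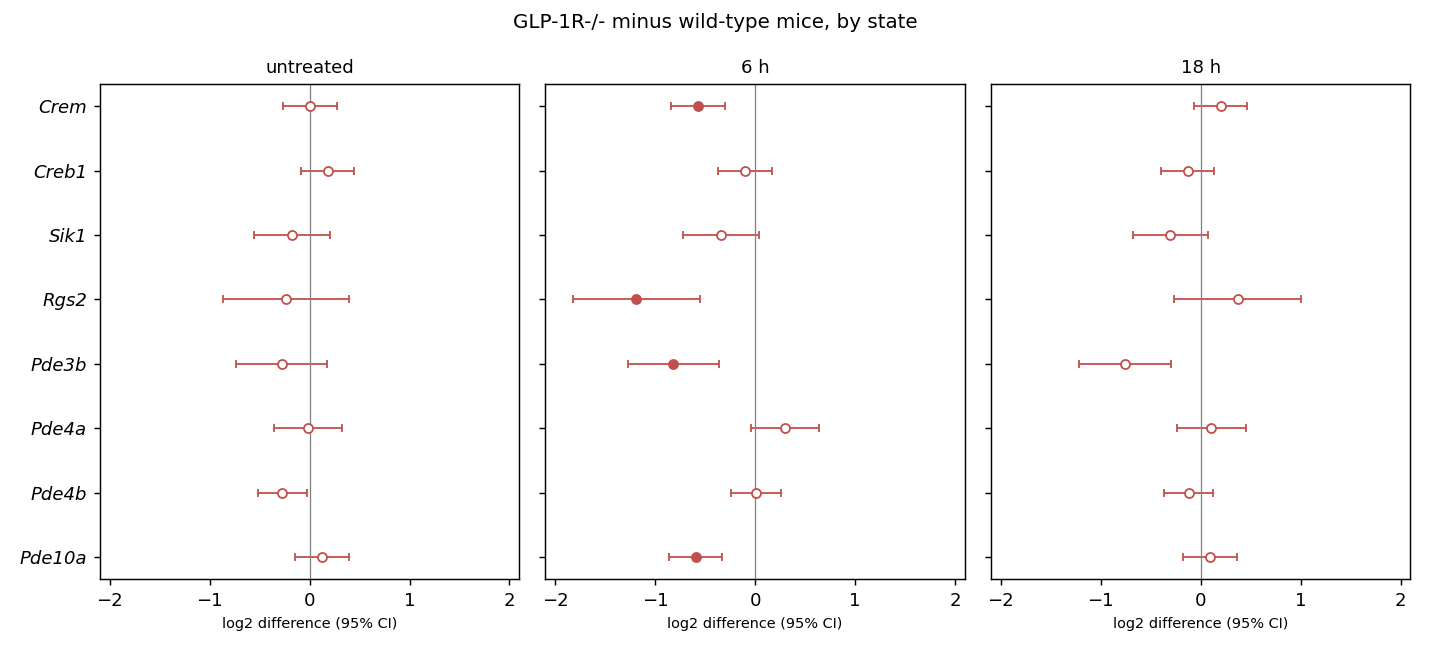
Log2 difference of GLP-1R-/- minus wild-type mice (horizontal axis) for 8 genes, untreated (left), 6 h (middle) and 18 h after exendin-4 (right); bars are 95% intervals from limma and filled circles are calls at an adjusted p under 0.05. At 6 h Rgs2 (-1.19), Pde3b (-0.82), Pde10a (-0.60) and Crem (-0.57) are lower in GLP-1R-/- mice. The Pde3b and Sik1 differences are below 0 in all 3 panels. The Sik1 interval crosses 0 in each panel, and the Pde3b interval only in untreated mice.

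For Crem and Pde10a, the most alike genes were sought by Pearson correlation over the 18 arrays, which share the 6 groups. The closest to Crem was ENSMUSG00000051223 (r = 0.944), followed by ENSMUSG00000041360 (r = 0.936). ENSMUSG00000041360 was also the second closest to Pde10a (r = 0.861), just behind another gene at r = 0.862. Both were picked for this likeness, so their 6 h differences in wild-type mice, each 0.98 on the log2 scale, are a description. Neither identifier is paired with a symbol in the tables used here.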

How the data were processed

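Gene expression was measured on 18 arrays from 18 mice. Per the labels' protocols, total RNA came from a TRIzol extraction with a column clean-up and was labelled with biotin. The authors deposited log2 values, and RMA is the tool named per the submitters' processing notes. Not given in the sources used here are the RMA version, genome build and array model. For arrays, the number of mice limits the precision.

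Genes were tested if they exceeded 4.79, the 30th percentile over the whole table, on at least 3 arrays. Using limma 3.58.1 and R 4.3.3, each group's mean was estimated from 1 linear fit over the 18 arrays, followed by eBayes. Two-sided p-values were adjusted over 12775 genes by Benjamini-Hochberg, with a threshold of 0.05. The fit was tested on simulated data, with changes set only into genes brighter than the median of all values. Those changes were larger than the ones called for Crem and Pde10a, which are dimmer. The simulation therefore does not cover these 2 calls. Mice were individual animals per the design text, which makes each array 1 replicate, and no 2 arrays were identical. All genes of the list were named, and the most alike genes were taken by Pearson r. The list, comparisons and naming rule were chosen with earlier results of these data known. Symbols of the 10 genes were given with the list, and 6 lists of pathway genes and 11 of cell type markers, set by symbol, could not be joined to the identifiers and were not used here.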

Additional observations from a re-analysis of the deposited data

How the results depend on the processing

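Each count of called genes was recomputed under alternative filters, centring, array weights, a trended and robust eBayes, quantile normalisation, a limma fit to the groups compared alone, and without each of the 18 arrays in turn, which includes GLP-1R-/- 6 h replicate 13. In wild-type mice at 6 h against untreated the count of 2 became 0 with the filter at the median of all values, which no longer tests Crem and Pde10a, and 1 in the fit to the groups compared; without 1 array it was 1 to 2. For wild-type mice at 18 h against 6 h the count of 3 became 1 with the stricter filter, for the same reason, and was 2 to 3 without 1 array. For GLP-1R-/- against wild-type mice at 6 h the count of 4 became 2 with the stricter filter and 0 in the fit to the groups compared, and was 0 to 4 without 1 array. At 18 h the count of 0 between genotypes became 1 (Pde3b) with array weights and was 0 to 1 without 1 array. For the genotype difference in the 6 h change the count of 0 became 1 (Pde10a) with each array centred on its median, with array weights and with quantile normalisation, and was 0 to 1 without 1 array. Averaged over the 3 states, the count of 1 became 3 with array weights, which added Crem and Pde10a; this comparison was chosen after seeing the data. Except where the construction of the filter shows it, the cause was not tested. In the other 5 comparisons the count of 0 was the same in all 25 alternatives. Among the differences traced gene by gene, 2 changed sign without 1 array, both in GLP-1R-/- mice at 6 h against untreated and neither called: Rgs2 lay between -0.38 and 0.036 (0.036 without 6 h replicate 13), and Sik1 between -0.15 and 0.079. No paired analysis was possible because the labels give each array its own number.

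Crem and Pde10a lie close to the level of the filter, where RMA compresses differences, which bears on their fold changes. The number of mice, 3 a group, sets the width of the intervals.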

Other observations

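Wild-type 6 h replicate 9 had the highest signal of its 3 arrays for 6 of the 9 genes (Crem, Sik1, Rgs2, Pde3b, Pde4a and Pde10a) and the lowest for 2 (Pde4b and Pde7b). GLP-1R-/- 6 h replicate 13 lay at an end of its group for all 9 genes, highest for 4 and lowest for 5; limma's array weight was 0.084 for it and between 0.483 and 2.84 for the other 17 arrays. Whether either pattern has to do with RNA quality or with other cells in the cut tissue was not tested.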
